A study of Rattus norvegicus and Mus musculus with 25 samples.

Results

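Heart muscle cells of newborn mice that carried Cre recombinase and 1 floxed copy of Vldlr were compared with cells of newborn mice that carried no Cre and 2 floxed copies. The comparison used 6 of the 25 RNA-seq libraries of the series, 3 of each genotype. A gene entered the test when it reached at least 1 CPM (expression values that are scaled to sum to 1000000 in each library) in at least 3 of the 6 libraries, which 14591 of the 54087 rows of the mouse table did. Each library was labelled as cardiomyocytes from the heart of C57BL/6 mice at day 1 after birth. The series asks how the secreted proteins Reelin and thrombospondin-1 act on cardiomyocyte proliferation through the receptor encoded by Vldlr, and its other libraries come from rat cardiomyocytes and from another mouse genotype.

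In the Myh6-Cre;Vldlr f/+ libraries, called Cre f/+ here, the Myh6 promoter (that of a cardiomyocyte myosin) drove Cre, 1 Vldlr copy was flanked by loxP sites and the other was wild type. In the Vldlr f/f libraries, called f/f, both copies were floxed and no Cre was present to recombine them. The Myh6-Cre;Vldlr f/f libraries, called Cre f/f, carried Cre with both copies floxed and served to set levels beside the comparison. The genotypes compared therefore differ in the presence of Cre and in the number of floxed copies together, and Cre itself and the loss of 1 Vldlr copy cannot be told apart. The labels describe the digestion of rat hearts only; the sources used here do not give how the mouse cells were prepared, or whether each library came from its own animal. P-values therefore speak only of library-to-library spread, part of which may be technical.

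Vldlr encodes a cell-surface receptor of the LDL receptor family that takes up triglyceride-rich lipoproteins and also acts as a signalling receptor. Reelin binds it and its relative Lrp8 (ApoER2), the adaptor Dab1 is then phosphorylated by kinases of the Src family, and Crk-type adaptors carry the signal on. In heart and fat the receptor is best known for its part in the supply of fatty acids.

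The 6 libraries did not separate by genotype. On the first principal component of log2(CPM + 1), which held 35.9% of the variance of the 9 mouse libraries, Cre f/+ replicate 1 (-55.8) lay with f/f replicate 2 (-36.7) and Cre f/f replicate 1 (-33.3), while Cre f/+ replicate 2 (28) lay with f/f replicates 1 (27.2) and 3 (20.7). Cre f/+ replicate 3 stood apart on the second component (44.4, with Cre f/f replicate 3 at 36). Pearson correlations across genes were 0.916 to 0.944 within Cre f/+, 0.937 to 0.97 within f/f and 0.915 to 0.972 between them. The 4 Y-linked genes Ddx3y, Eif2s3y, Kdm5d and Uty summed to at most 0.0605 CPM in the 3 Cre f/+ libraries and were at 0 in f/f replicate 1, but reached 211 and 196 CPM in f/f replicates 2 and 3. Xist, the X-inactivation transcript, mirrored them, at 1129, 253 and 601 CPM in Cre f/+ and 408, 0.06 and 0 CPM in f/f. Sex-linked expression thus differed along with genotype. Values with the sum of these 4 genes as a covariate, or without the libraries where it exceeded 1 CPM, are given for some of the results. They stand beside the result or in the later section on how the results depend on the processing. Cardiomyocyte markers were present in every library (all 10 tested, summed level 45638 to 59115 CPM over the 6), beside markers of fibroblasts (3453 to 6124 CPM) and endothelial cells (1551 to 1917 CPM). In such bulk samples, fewer cells of a type and less RNA per cell cannot be told apart.

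**Figure D1:**
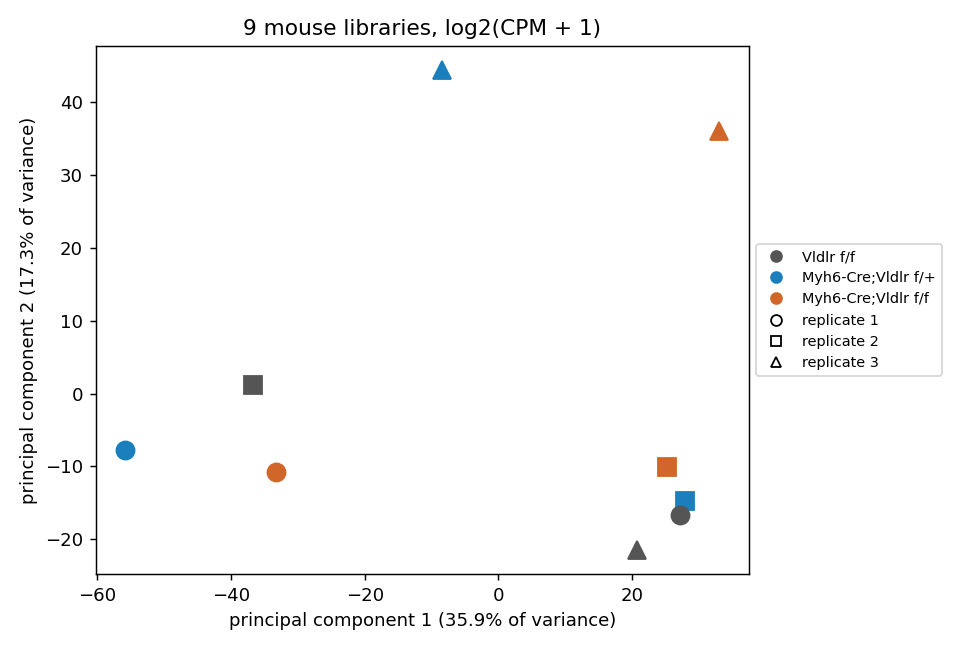
Each point is 1 of the 9 mouse libraries, placed by its first (horizontal) and second (vertical) principal component of log2(CPM + 1), with color for genotype and shape for replicate number. Libraries of all 3 genotypes lie on both sides of the first component, and Cre f/+ replicate 3 and Cre f/f replicate 3 lie highest on the second.

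Vldlr itself was at 98.4, 112 and 100.2 CPM in the Cre f/+ libraries and at 195, 109 and 164 CPM in the f/f libraries. The Cre f/+ libraries were close together, and f/f replicate 2 lay among them, so the groups overlapped. The mean was 104 ± 7.32 CPM (SD, n = 3) against 156 ± 43.7 CPM (SD, n = 3). The log2 difference, taken here and below as Cre f/+ minus f/f on log2(CPM + 1), was -0.55 with a standard error of 0.23 and a 95% interval of -1.06 to -0.03, a 1.46-fold lower level. It was not called by limma (adjusted p = 0.999, unadjusted p = 0.0396), and without f/f replicate 1 it was -0.37. With f/f reduced to its only library with no Y-linked transcripts of those 4 genes it was -0.91, a value with 1 library on that side. The Cre f/f libraries were at 71.3, 78.9 and 85.1 CPM, each below all 6 of the others, with a log2 difference from Cre f/+ of -0.40 (95% interval -0.91 to 0.12, adjusted p = 1). Vldlr lies on the plus strand of GRCm38 at chr19:27216484-27254231 and overlaps no other gene of GENCODE M21, whose 8 transcripts of it have 3 to 19 exons. The deposited value covers the gene as a whole, so transcripts that lack a deleted exon would still be counted.

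Among the ligands, neither differed beyond the spread of the libraries. Reln was at 9.59, 6.1 and 5.78 CPM in Cre f/+ and at 7.09, 4.13 and 8.77 CPM in f/f, so the groups overlapped. Its log2 difference was 0.11 (95% interval -0.57 to 0.79), with a sign that turned when Cre f/+ replicate 1 or f/f replicate 2 was left out. Thbs1 was at 43.8, 29.2 and 156 CPM in Cre f/+ and at 30.7, 79.1 and 83.9 CPM in f/f, with a log2 difference of -0.01 (95% interval -1.40 to 1.39). Cre f/+ replicate 3 held the highest Thbs1 level, and without it the difference was -0.70. Thbs2, the related thrombospondin-2, was at 138, 83.8 and 94.4 CPM in Cre f/+ against 57.1, 64.6 and 89 CPM in f/f, a log2 difference of 0.57 (unadjusted p = 0.0419, not called). The f/f replicate with the highest Thbs2 lay above the lowest Cre f/+ replicate.

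**Figure D2:**
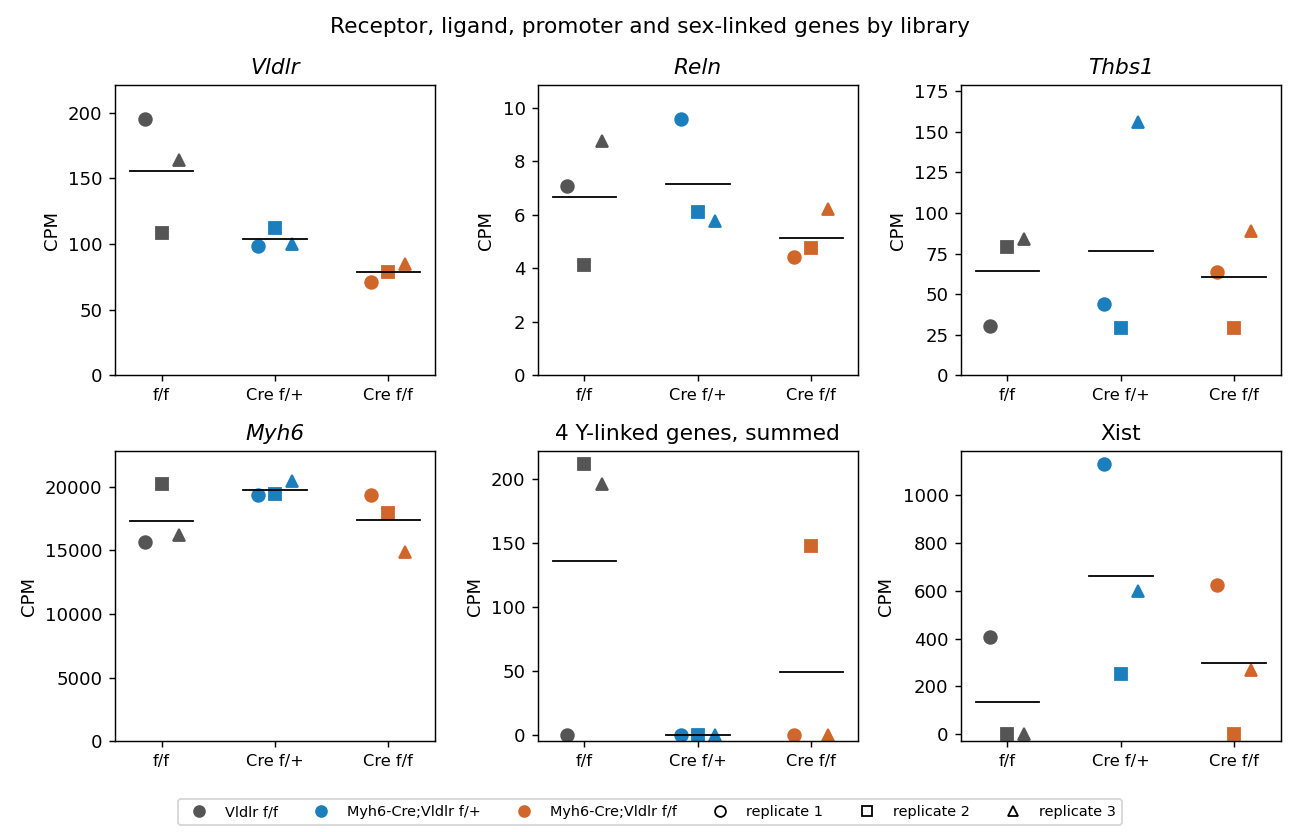
CPM (vertical axes) of Vldlr, Reln, Thbs1, Myh6, the sum of 4 Y-linked genes and Xist, by genotype (horizontal axes); points are libraries and lines are group means. Vldlr is lower in mean in Cre f/+ than in f/f with 1 f/f library among the Cre f/+ ones, and within the comparison only f/f libraries exceed 1 CPM of Y-linked transcripts.

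Of the rest of the Reelin pathway list (19 genes: receptors, ligands, adaptors and kinases), 17 were tested and none was called. The background over all genes was 0 of 14591 called (0%). Positive differences were seen in 6 of the 17, against 41.4% of all genes tested, and the list's median was -0.08 against -0.06 for all genes. The second Reelin receptor Lrp8 stayed under the filter, at 0.389 to 2.67 CPM over the 6 libraries, and the adaptor Dab1 was at most 0.363 CPM. The kinases Src and Fyn had log2 differences of -0.22 and 0.05, and the adaptors Crk and Crkl -0.08 and -0.27. Dab2, an endocytic adaptor for this receptor family, was at -0.17. Mylip, the ubiquitin ligase that targets the receptor for degradation, was at 0.02, and the signs of Fyn, Crk and Mylip turned with single libraries left out. In the LDL receptor family 3 of 12 tested genes had positive differences, with a median of -0.14 and no call. The groups overlapped for each of the 12 family members. Myh6, whose promoter drives Cre, was at 19344, 19409 and 20460 CPM in Cre f/+ and at 15630, 20177 and 16188 CPM in f/f, a log2 difference of 0.20 (95% interval -0.42 to 0.81).

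Across the transcriptome, limma called no gene at an adjusted p under 0.05, and the smallest adjusted p was 0.312. An unadjusted p under 0.05 was reached by 347 genes (2.38%), fewer than the 730 that 5% of the tested genes would be. Of these, 134 (0.918%) were higher and 213 (1.46%) lower in Cre f/+. Without overlap between the groups were 868 genes (5.95%): the 3 Cre f/+ libraries lay wholly above the f/f libraries for 317 genes (2.17%) and wholly below them for 551 (3.78%). The unadjusted 95% interval of a median gene reached 0.656 to each side on the log2 scale. Among 11651 genes that averaged 5 CPM or more in either group, 228 differed by more than 1 on the log2 scale, and 56 of those had no overlap between the groups. The edgeR test on whole numbers recovered from the CPM also called none (330 at an unadjusted p under 0.05), while DESeq2 on the same numbers called 4 genes: Angptl7, Fam109b, Tmem170b and Tmem254a.

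**Figure D3:**
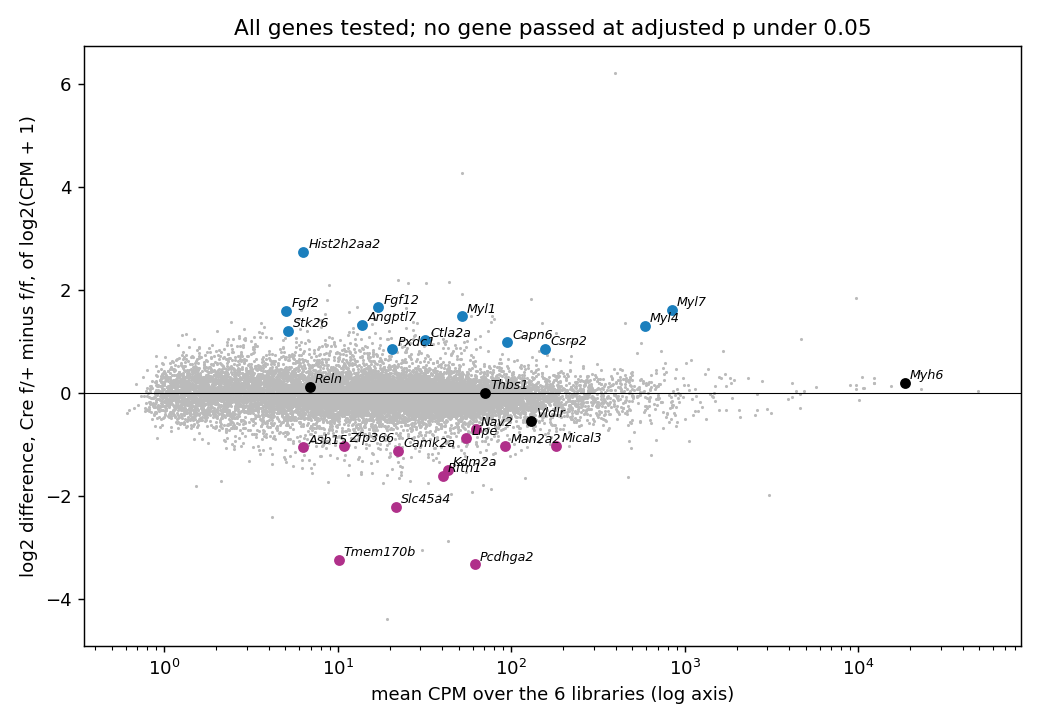
Log2 difference, Cre f/+ minus f/f (vertical axis), against mean CPM over the 6 libraries (horizontal log axis) for all 14591 genes tested in gray. Blue and purple points are the 12 genes per direction with the smallest p that met the naming rule, black points are Vldlr, Reln, Thbs1 and Myh6, and no gene was called by limma.

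For 2 of the genes with small p-values the sequence bears directly on the value, because the mouse genome holds copies with the same coding sequence, so that a read within it does not tell them apart. Their untranslated regions were not compared. Tmem254a, a small membrane protein gene, had the smallest DESeq2 adjusted p (9.22e-09). It was listed at 0 in all 3 Cre f/+ libraries and was at 6.26, 1.23 and 1.64 CPM in f/f. Tmem254b and Tmem254c lie on the same strand of chromosome 14 in GRCm38, and the 387 coding bases of all 3 are identical in GENCODE M21. The first 120 coding bases are shown in lower case; capitals would mark a base that differs, and there is none.
Tmem254a: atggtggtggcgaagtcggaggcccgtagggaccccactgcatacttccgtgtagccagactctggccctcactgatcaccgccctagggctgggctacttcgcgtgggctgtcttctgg
Tmem254b: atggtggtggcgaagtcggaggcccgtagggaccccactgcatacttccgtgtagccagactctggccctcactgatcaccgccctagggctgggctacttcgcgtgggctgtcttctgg
Tmem254c: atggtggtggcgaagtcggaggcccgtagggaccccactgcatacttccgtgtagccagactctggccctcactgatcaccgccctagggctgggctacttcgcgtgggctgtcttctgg
Tmem254b was at 17, 9.69 and 17.7 CPM in Cre f/+ and at 11.1, 3.51 and 12.2 CPM in f/f. Tmem254c was at 20.9, 25.5 and 17.9 CPM in Cre f/+ and at 12, 20 and 18.71 CPM in f/f. Summed over the 3 copies the level was 37.9, 35.1 and 35.6 CPM in Cre f/+ and 29.4, 24.7 and 32.6 CPM in f/f, which is the opposite order to Tmem254a alone. How the authors' counting divided such reads is not stated in the sources at hand, so the value of a single copy is uncertain.

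Hist2h2aa2, which encodes a core histone H2A, was the other such gene and had 1 of the widest differences among the named genes. It was at 24.2, 5.71 and 5.43 CPM in Cre f/+ and at 0, 2.66 and 0 CPM in f/f, a log2 difference of 2.74 (unadjusted p = 0.00639). Its partner Hist2h2aa1 lies close by on the opposite strand of chromosome 3 and was listed at 0 in all 9 libraries, so the sum of the pair equals Hist2h2aa2 alone. Their 390 coding bases are identical, as the first 120 show.
Hist2h2aa1: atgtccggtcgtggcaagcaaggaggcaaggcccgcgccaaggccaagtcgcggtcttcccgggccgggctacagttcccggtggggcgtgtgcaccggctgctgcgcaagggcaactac
Hist2h2aa2: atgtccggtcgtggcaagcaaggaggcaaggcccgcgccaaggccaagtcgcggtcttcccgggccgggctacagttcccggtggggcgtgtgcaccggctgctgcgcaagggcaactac
In Cre f/f Hist2h2aa2 was at 4.99, 0 and 0 CPM, so 1 library of each of the other genotypes also held transcripts of it.

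The genes named next were taken by rule, as the smallest p in each direction among genes without overlap, so their separation is how they were chosen. None was called by limma (adjusted p = 0.999 for each). Angptl7, a secreted angiopoietin-like protein, was at 24.4, 14.5 and 21.8 CPM in Cre f/+ and at 7.74, 7.27 and 7.01 CPM in f/f. The f/f libraries were nearly equal and all Cre f/+ libraries lay above them, with a log2 difference of 1.32 ± 0.26 (SE). DESeq2 called it (adjusted p = 4.17e-04). Angptl7 lies at chr4:148495183-148500460 on the minus strand within Mtor on the plus strand, and whether the counting used strand is not given, so reads of the 2 genes may not be told apart. Ctla2a, a small inhibitor of cysteine proteases, was at 48.5, 33 and 48.3 CPM in Cre f/+ and at 21.6, 21.2 and 18.65 CPM in f/f (log2 difference 1.02), and 2 predicted genes overlap it on the same strand. Capn6, a calpain without protease activity that binds microtubules, was at 167, 117 and 95 CPM in Cre f/+ and at 78.5, 56.2 and 53.3 CPM in f/f (log2 difference 0.98). Here Cre f/+ replicate 1 was the highest of all 6 libraries, as it was for Ctla2a.

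Myl1, a light chain of fast skeletal myosin, was at 127, 58.8 and 45.3 CPM in Cre f/+ and at 34.8, 33.5 and 12.1 CPM in f/f (log2 difference 1.48). Csrp2, a LIM-domain protein of smooth muscle, was at 293, 168 and 151 CPM against 116, 105 and 103 CPM (log2 difference 0.85). Cre f/+ replicate 1 was again the highest for both. Fgf2, a growth factor, was at 13.9, 5.7 and 4.63 CPM in Cre f/+ and at 0.721, 4.16 and 1.33 CPM in f/f (log2 difference 1.59). The gap between the groups is narrow, since f/f replicate 2 lies just under Cre f/+ replicate 3, and Fgf2 overlaps the opposite-strand genes Nudt6 and Fgf2os. Stk26, a kinase of the germinal centre kinase family, had a log2 difference of 1.20 and Pxdc1 one of 0.84. Stk26 and Capn6 lie on the X chromosome, and the libraries also differed in Xist and Y-linked transcripts, as given above.

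In the other direction, Slc45a4, a solute carrier, was at 4.27, 14.7 and 4.74 CPM in Cre f/+ and at 36.6, 30.4 and 39.1 CPM in f/f (log2 difference -2.21 ± 0.42, SE). Kdm2a, a histone demethylase, was at 14.8, 45.3 and 13.9 CPM in Cre f/+ and at 59.5, 56.8 and 67.9 CPM in f/f (log2 difference -1.49). For both genes Cre f/+ replicate 2 was the nearest to f/f. Zfp366, a zinc finger transcription factor, was at 6.19, 7.47 and 6.73 CPM in Cre f/+ and at 16.2, 13.1 and 15.5 CPM in f/f (log2 difference -1.03), with little spread on either side. Tmem170b, a membrane protein, was at 1.03, 0.569 and 1.21 CPM in Cre f/+ and at 20.5, 29.4 and 8.03 CPM in f/f (log2 difference -3.24). DESeq2 called it as well (adjusted p = 0.00125), while Cre f/f replicate 3, at 0.556 CPM, was as low as the Cre f/+ libraries and Cre f/f replicates 1 and 2 (22.2 and 14 CPM) were not.

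Camk2a, a calcium/calmodulin-dependent kinase, was at 15.1, 19 and 8.22 CPM in Cre f/+ and at 29.2, 29.2 and 32.8 CPM in f/f (log2 difference -1.13). Lipe, hormone-sensitive lipase, was at 35, 41.3 and 36.2 CPM in Cre f/+ and at 91.2, 47.2 and 79.5 CPM in f/f (log2 difference -0.89), with f/f replicate 2 close to Cre f/+. Asb15, an ankyrin-repeat protein of muscle, had a log2 difference of -1.06, and Rftn1, a lipid raft protein, one of -1.61. Nav2, a cytoskeletal protein, differed by -0.71, Mical3, an actin-modifying oxidase, by -1.03 and Man2a2, a Golgi mannosidase, by -1.04. Man2a2 overlaps the opposite-strand gene Hddc3. Pcdhga2, a clustered protocadherin, was at 2.63, 20.4 and 7.86 CPM in Cre f/+ and at 152, 159 and 27.3 CPM in f/f (log2 difference -3.33). It shares its 3' exons with the other genes of its cluster, 24 genes overlap it on the same strand, and its value is uncertain for that reason. Fam109b, called by DESeq2 only (adjusted p = 0.00158) and below the level the rule asks for, was at 0.182, 0.317 and 0.842 CPM in Cre f/+ and at 4.84, 2.22 and 4.35 CPM in f/f.

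**Figure D4:**
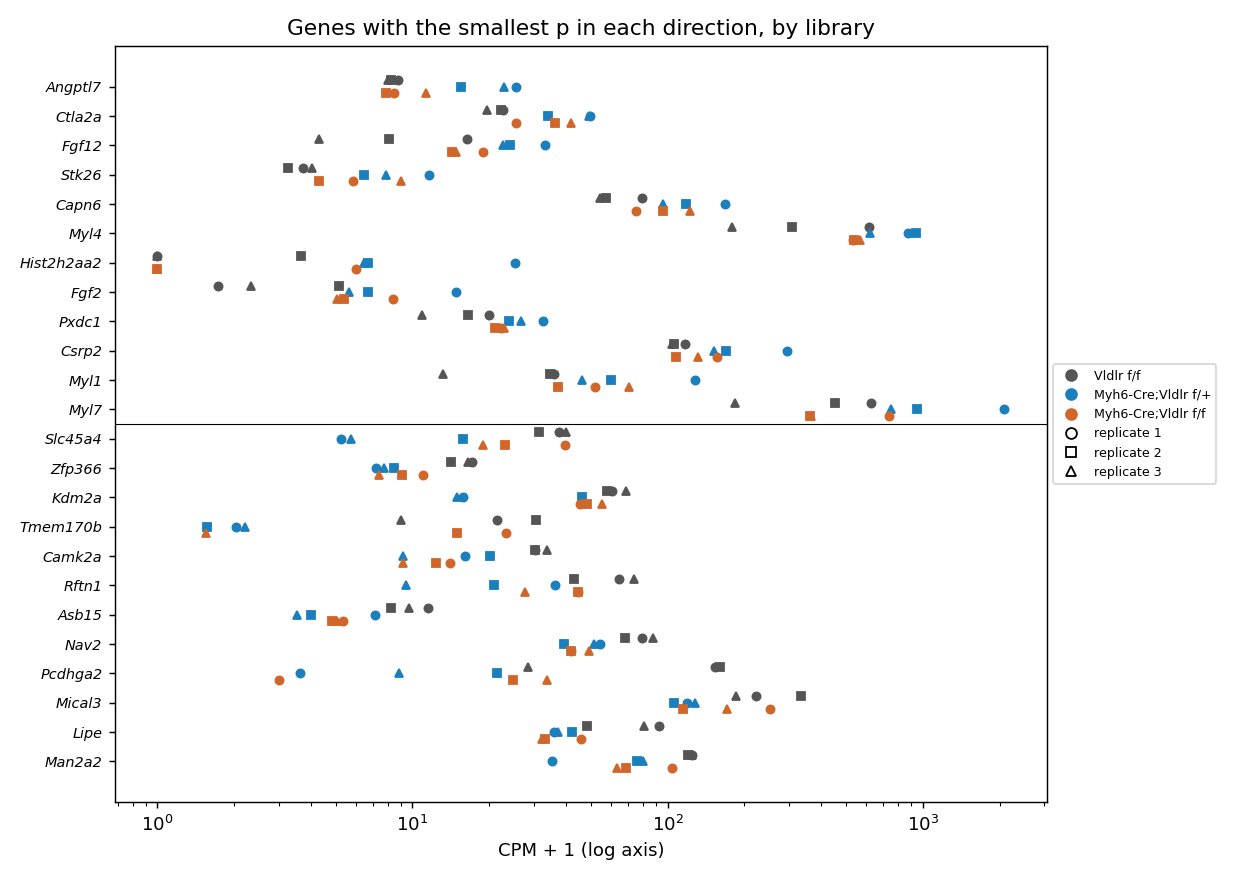
CPM + 1 (horizontal log axis) in each of the 9 mouse libraries for the 12 genes with the smallest p that were higher in Cre f/+ (upper block) and the 12 that were lower (lower block), with color for genotype and shape for replicate number. Cre f/+ and f/f do not overlap for any of them by the rule that chose them, and the Cre f/f points lie between, beyond or on either group depending on the gene.

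Set beside the Cre f/f libraries, the genes took different positions. The direct differences share the Cre f/+ libraries with the comparison that chose the genes. Positions against f/f share its f/f libraries, which by the rule lay wholly above or below Cre f/+. A Cre f/f level on the Cre f/+ side of f/f is therefore no separate support, and all these values are a description. Angptl7 was at 7.45, 6.9 and 10.3 CPM in Cre f/f, near the level of f/f, with a direct log2 difference of -1.19 from Cre f/+ (adjusted p = 1). Slc45a4 was at 38.8, 22 and 17.9 CPM, above all Cre f/+ libraries (direct difference 1.73), and Kdm2a at 44.2, 47.1 and 54.5 CPM (direct difference 1.15). Zfp366 (9.99, 8.13 and 6.38 CPM), Camk2a (13.1, 11.4 and 8.17 CPM) and Nav2 (40.7, 40.9 and 48.1 CPM) were instead below every f/f library in all 3 Cre f/f libraries. Lipe was at 44.8, 32.2 and 31.1 CPM, likewise under all f/f libraries, with a direct difference from Cre f/+ of -0.07. No gene was called between the Cre genotypes by limma either (138 at an unadjusted p under 0.05). Deviations from the group means correlated at 0.46, 0.45 and 0.33 between same-numbered libraries of these genotypes. Cre f/+ replicate 1 and f/f replicate 2, of unlike number, correlated at 0.42. Whether the numbers mark pairs is not given. With the number as a block in the 6 Cre libraries, limma again called none (smallest adjusted p = 0.42, 551 at an unadjusted p under 0.05).

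Atrial and conduction markers had the highest median of the gene lists of more than 1 tested gene, 1.18, with positive differences in 10 of 12 against 41.4% of all genes. None was called, and 5 had an unadjusted p under 0.05, all positive (background 0.918% of genes). Wholly higher in Cre f/+ without overlap were 3 members, against 2.17% of all genes. Myl7, the atrial regulatory light chain, was at 2091, 946 and 748 CPM in Cre f/+ and at 629, 453 and 183 CPM in f/f (log2 difference 1.61, SE 0.51). Myl4, the atrial essential light chain, was at 873, 939 and 620 CPM in Cre f/+ and at 616, 307 and 178 CPM in f/f (2.47-fold higher on the CPM + 1 scale). F/f replicate 1 all but reached the lowest Cre f/+ library for Myl4, and f/f replicate 3 was the lowest for both genes. Fgf12, an intracellular FGF-like protein that binds sodium channels, was at 32.2, 23.1 and 21.6 CPM against 15.4, 7.07 and 3.3 CPM (log2 difference 1.66). Sln, sarcolipin, an inhibitor of the calcium pump, was at 377, 143 and 124 CPM against 160, 63 and 38.4 CPM (log2 difference 1.35). Mybphl, a myosin-binding protein of the atria, had a log2 difference of 1.48, and Nppa, the atrial natriuretic peptide, one of 1.05. The members with negative differences were Hcn4 (-0.84), the pacemaker channel, and Tbx3 (-0.58), a transcription factor of the conduction system. The list's median was 0.73 without f/f replicate 3, 0.75 without Cre f/+ replicate 1 and f/f replicate 2, 0.44 with Y-linked CPM as a covariate and 0.27 when f/f was reduced to the library without Y-linked transcripts. How much atrial tissue each preparation held is not given, and its part in the result was not tested.

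Epicardial and mesothelial markers followed, with positive differences in 10 of 10, a median of 1.15 and 5 positive differences with an unadjusted p under 0.05 (0.918% of all genes), none called and none without overlap. Msln, mesothelin, was at 201, 84.8 and 54.1 CPM in Cre f/+ and at 55.5, 38.6 and 23.9 CPM in f/f (log2 difference 1.37). Cre f/+ replicate 1 was far above the rest, and Cre f/+ replicate 3 lay just under f/f replicate 1. Krt8, an epithelial keratin, differed by 1.09, Muc16, a membrane mucin, by 1.41, Lrrn4 by 1.33 and the urothelial and mesothelial protein Upk1b by 1.33. Wt1 and Tbx18, transcription factors of the epicardium, were at 0.31 and 0.13, and Tbx18 was at -0.21 without Cre f/+ replicate 1 and -0.09 without f/f replicate 1. The summed level of the list was 586, 311 and 156 CPM in Cre f/+ and 214, 141 and 128 CPM in f/f, and without Cre f/+ replicate 1 the median was 0.63. Fibroblast markers had positive differences in 11 of 12 (median 0.34; summed 6124, 4874 and 3971 CPM against 3595, 3453 and 4591 CPM). Macrophage and leukocyte markers had them in 9 of 12 (median 0.26), red blood cell markers in 7 of 8 (median 0.43) and endothelial markers in 7 of 12 (median 0.04). Cardiomyocyte markers were evenly split, with 5 of 10 positive and a median of 0.03. Among the 4 tested neural crest and glial markers, 1 was positive (median -0.08).

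Smooth muscle and pericyte markers had both signs. The pericyte genes Cspg4 and Notch3 were lower in Cre f/+: Cspg4, the NG2 proteoglycan, was at 47.1, 43.8 and 50.9 CPM against 69.4, 71.4 and 72.8 CPM (log2 difference -0.58, unadjusted p = 0.0215). Notch3, a receptor of mural cells, was at 50, 55.9 and 58.4 CPM against 115, 59.3 and 101 CPM (log2 difference -0.68). Neither overlapped, though f/f replicate 2 was only just above the Cre f/+ libraries for Notch3. Of the contractile genes on the list, Tagln (transgelin) and Acta2 (smooth muscle actin) were on the other side, at 0.48 and 0.81. The contractile genes Myh11 and Cnn1 are also on it and were not both positive, since only 3 of 10 members were. F/f replicate 2, at 1012 CPM of Acta2, was above all Cre f/+ libraries. Tagln did not overlap, at 73.8, 62 and 71.4 CPM in Cre f/+ against 45, 54.6 and 48.1 CPM in f/f. Over the list 3 of 10 were positive, the median was -0.39 and none was called. Wholly lower in Cre f/+ were 3 members (3.78% of all genes) and wholly higher was 1, Tagln (2.17% of all genes).

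Genes of fatty acid oxidation, the main energy source of the maturing heart, were lower in mean in Cre f/+ for 26 of 27, with a median of -0.46 against -0.06 for all genes and negative differences in 58.6% of all genes. None was called, 1 had an unadjusted p under 0.05 (1.46% of all genes, in this direction) and 3 lay wholly lower (3.78% of all genes). Acot2, a mitochondrial acyl-CoA thioesterase, was at 145, 171 and 137 CPM in Cre f/+ and at 285, 180 and 283 CPM in f/f (log2 difference -0.70, unadjusted p = 0.0323). Pdk4, the kinase that shuts pyruvate out of oxidation, was at 119, 190 and 90.2 CPM in Cre f/+ and at 348, 119 and 434 CPM in f/f (log2 difference -1.04). F/f replicates 1 and 3 were high for both, while f/f replicate 2 was near the Cre f/+ libraries. Hadhb, the thiolase subunit of the trifunctional protein, was at 223, 620 and 193 CPM against 782, 356 and 690 CPM (log2 difference -0.94), and here Cre f/+ replicate 2 reached into f/f. Cpt1a, which passes fatty acids into mitochondria, differed by -0.65. Summed over the list, Cre f/+ held 5991, 10369 and 6097 CPM and f/f 13422, 6986 and 12026 CPM, so the libraries overlapped, with the 3 lowest sums in Cre f/+ replicates 1 and 3 and f/f replicate 2. The list's median was -0.82 without f/f replicate 2, -0.77 without Cre f/+ replicate 2 and -0.29 without f/f replicate 1.

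Lipid uptake and storage genes had negative differences in 20 of 22, against 58.6% of all genes (median -0.27). None was called, and 2 were lower at an unadjusted p under 0.05 (1.46% of all genes). Slc27a1, a fatty acid transport protein, was at 167, 137 and 129 CPM in Cre f/+ and at 333, 199 and 191 CPM in f/f (log2 difference -0.70), with no overlap. Cd36, the fatty acid translocase, was at 168, 647 and 772 CPM in Cre f/+ and at 843, 715 and 941 CPM in f/f (log2 difference -0.92). That value rests on Cre f/+ replicate 1, without which it was -0.23. Plin5, a lipid droplet protein of oxidative tissue, differed by -0.60. In the tricarboxylic acid cycle 18 of 20 were negative (median -0.26), among them Ogdh (-0.44), Fh1 (-0.28) and Idh2 (-0.51), yet without Cre f/+ replicate 1 the median was 0.05. Nuclear subunits of the respiratory chain were split, with 21 of 41 positive (median 0.03), glycolysis had 8 of 24 positive (median -0.09) and sterol and fatty acid synthesis 7 of 27 (median -0.13). No gene of these 3 lists was called.

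Proliferation genes are those the series is about. All 30 genes of the mitosis and cytokinesis list had positive differences (median 0.53), but none was called, none had an unadjusted p under 0.05 and none was free of overlap. Mki67, a marker of cycling cells, was at 52.9, 51 and 88.1 CPM in Cre f/+ and at 11.7, 85.7 and 60.5 CPM in f/f (log2 difference 0.63). Ccnb1, cyclin B1, was at 8.76, 19.2 and 27.7 CPM in Cre f/+ and at 2.94, 15.1 and 12.3 CPM in f/f (log2 difference 0.91). In both, f/f replicate 1 was the lowest of the 6 libraries, and without it the Mki67 log2 difference turned to -0.21 and the Ccnb1 log2 difference was 0.28. The summed level of the list was 312, 520 and 718 CPM in Cre f/+ and 177, 486 and 440 CPM in f/f, and the list's median was 0.12 without f/f replicate 1, 0.21 without Cre f/+ replicate 3 and 0.82 without Cre f/+ replicate 1. Kif4, Ndc80 and Ect2, which build the spindle and the cleavage furrow, differed by 0.66, 0.69 and 0.78. The DNA replication list showed no such tilt, with 19 of 34 positive and a median of 0.04. Its members Orc6, of the origin recognition complex, and Rfc3, of the clamp loader, were without overlap, at 0.47 and 0.34. Their unadjusted p in limma was 0.0811 and 0.149, and 2.17% of all genes lay wholly higher in Cre f/+. Orc6 was at 14, 14.5 and 9.81 CPM in Cre f/+ and at 8.07, 9.19 and 9.26 CPM in f/f. Mcm3, of the replicative helicase, differed by -0.45 in the other direction.

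Sarcomere genes had 15 of 30 positive differences and a median of 0.02. An unadjusted p under 0.05 was reached by 5 of them, against 2.38% of all genes. Among these were Myl7, Myl4 and Mybphl, with positive differences, which are also on the atrial list, and Myh7, with a negative one. Myh7, the slow myosin heavy chain that mouse ventricles replace with Myh6 around birth, was at 538, 813 and 2106 CPM in Cre f/+ and at 8892, 1405 and 4634 CPM in f/f. Its log2 difference was -1.99 (95% interval -3.72 to -0.26, unadjusted p = 0.0282). F/f replicates 1 and 3 were high, while f/f replicate 2 lay under Cre f/+ replicate 3, so the groups overlapped. Cre f/f held 968, 656 and 3475 CPM of Myh7. The ventricular light chains Myl2 and Myl3 had log2 differences of 0.11 and -0.08, and both signs turned with single libraries left out. Of calcium handling and ion channel genes 23 of 27 were negative (median -0.31). Kcnip2, a subunit of the transient outward potassium channel, differed by -0.84. Its difference was -0.39 without Cre f/+ replicate 1.

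Cardiac transcription factors had 5 of 22 positive differences (median -0.18), with 5 members wholly lower in Cre f/+ (background 3.78% of genes) and none called. Irx4, a ventricular homeobox factor, was at 98, 106 and 85.4 CPM in Cre f/+ and at 145, 145 and 164 CPM in f/f (log2 difference -0.64, unadjusted p = 0.015). Irx3, a homeobox factor of the conduction system, was at 51.2, 57 and 54.3 CPM in Cre f/+ and at 78, 80.6 and 87.4 CPM in f/f (log2 difference -0.59). For both genes every Cre f/+ library lay below every f/f library. Hey2, a Notch target that marks compact ventricular muscle, was at 69.1, 53.7 and 65.4 CPM in Cre f/+ and at 91.2, 75.4 and 90.7 CPM in f/f (log2 difference -0.45), and Mef2d, a MADS-box factor, differed by -0.57. For Irx4, the difference ran from -0.72 to -0.56 over the settings run, each left-out library included, and was called in none.

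Immediate early genes, which rise with handling as well as with signalling, had positive differences in 20 of 23, against 41.4% of all genes (median 0.43). None was called, and 2 were higher at an unadjusted p under 0.05 (0.918% of all genes). Fos was at 75.6, 6.77 and 25.9 CPM in Cre f/+ and at 0.533, 22 and 3.76 CPM in f/f, a log2 difference of 2.19 with a 95% interval of -0.05 to 4.43. Atf3, a stress-induced factor, was at 14.7, 12.1 and 96.8 CPM against 4.79, 8.8 and 10.6 CPM (log2 difference 1.65), and Dusp1, a phosphatase of MAP kinases, differed by 0.69. Cre f/+ replicate 3 was the highest for Atf3, and without it the Atf3 log2 difference was 0.73. The Fos log2 difference was 1.27 without f/f replicate 1 and 1.39 without Cre f/+ replicate 1. The list's median was 0.14 without Cre f/+ replicate 3, 0.76 without Cre f/+ replicate 2 and 0.67 without f/f replicate 3. The p53 targets were split, with 14 of 28 positive and a median of -0.01. Plk2, a kinase induced by p53, was at 98.3, 85.4 and 110 CPM in Cre f/+ and at 65.4, 71.2 and 78.9 CPM in f/f, without overlap (log2 difference 0.44, unadjusted p = 0.0471). It was the 1 member wholly higher in Cre f/+ (2.17% of all genes). The 1 wholly lower (3.78% of all genes) was Eda2r, at 2.12, 2.38 and 2.595 CPM against 2.98, 3.69 and 3.32 CPM (log2 difference -0.36). Growth factor genes of cardiomyocytes had 12 of 24 positive (median -0.03). Nrg1, the ligand of the ErbB receptors, was at 6.43, 3.48 and 3 CPM in Cre f/+ and at 2.03, 2.03 and 2 CPM in f/f (log2 difference 0.76), whereas its receptor Erbb3 was at 9.99, 13.5 and 10.4 CPM against 16.2, 14.4 and 16.1 CPM (log2 difference -0.44). Neither overlapped and neither was called.

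**Figure D5:**
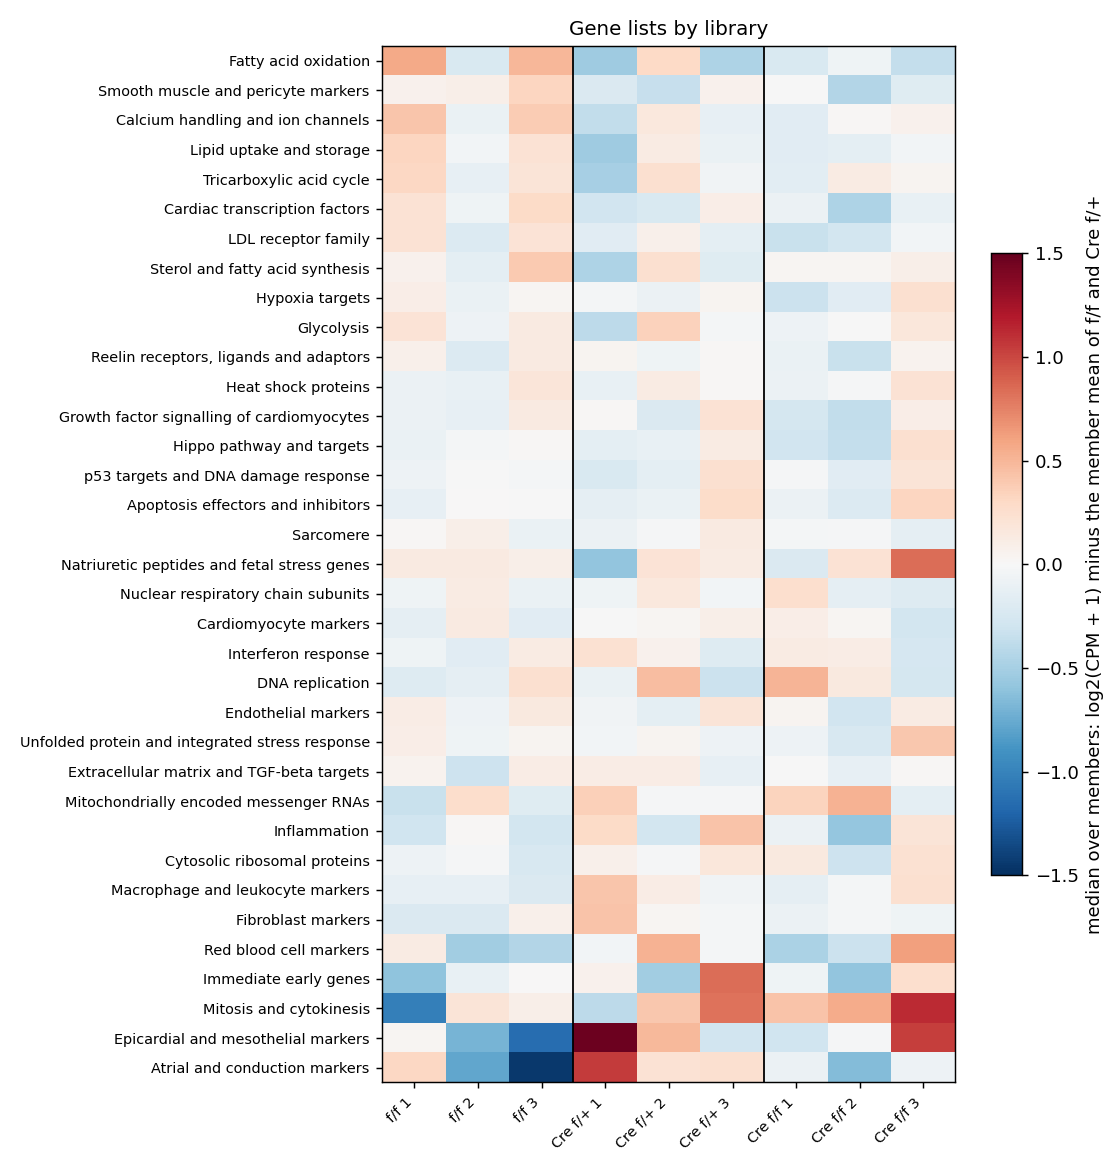
Each cell gives, for 1 gene list (rows) in 1 of the 9 mouse libraries (columns), the median over its tested members of log2(CPM + 1) minus the member's mean over the 6 f/f and Cre f/+ libraries, for lists with at least 5 tested members in order of their median difference. Fatty acid oxidation is low in Cre f/+ replicates 1 and 3 and in f/f replicate 2, mitosis is lowest in f/f replicate 1, and atrial markers are lowest in f/f replicate 3.

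Cytosolic ribosomal proteins had 32 of 37 positive differences with a small median of 0.19, and mitochondrially encoded messenger RNAs 11 of 13 (median 0.13). Mitochondrial transcripts made up 21%, 17.6% and 16.4% of CPM in Cre f/+ and 13.9%, 19.6% and 15.4% in f/f. The list member mt-Atp6 was at 15565, 11018 and 12880 CPM in Cre f/+ and at 1753, 15103 and 1824 CPM in f/f. Its log2 difference was 1.84 (unadjusted p = 0.0245 in limma, not called), so this gene is part of the lower shares of f/f replicates 1 and 3. The interferon (15 of 26 positive, median 0.04), heat shock (5 of 14, -0.06), unfolded protein (14 of 25, 0.08), apoptosis (11 of 20, 0.01), inflammation (7 of 12, 0.15), hypoxia (7 of 17, -0.11), Hippo (9 of 20, -0.03), extracellular matrix (19 of 30, 0.09) and fetal stress (6 of 11, 0.02) lists held no called gene.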

How the data were processed

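Libraries for Illumina sequencing came from TRIzol-extracted RNA, per the labels' protocols. Named without a role in the submitters' processing notes are edgeR 3.20.9, HISAT2 2.1.0 and StringTie 1.3.4, and the builds mm10 and rn6. The authors deposited CPM that sum to 1000000 in every library, with no counts. The deposited CPM are whole multiples (100% of values within 0.05) of a step that is the most common value divided by 4. Steps sum to 66088372 to 75638338 over the 6 libraries compared; a step need not be a read, so the depth in reads is unknown. 4 rows with repeated names were left out.

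The main test, on log2(CPM + 1), came from limma 3.58.1 under R 4.3.3 with the trend option, all 9 mouse libraries in a single fit with 1 mean per genotype, two-sided, with Benjamini-Hochberg adjustment and calls at 0.05. The pseudocount of 1 makes fold changes of low genes too small. An exact permutation test of 3 against 3 could not go below 0.1 and was not used. Alternatives were pseudocounts of 0.25 and 5, other filters, median-ratio scaling, a Y-linked covariate, a replicate block, edgeR 4.0.16 and DESeq2 1.42.0 on recovered steps, and leaving out libraries. The fit was tested on simulated data.

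Named genes were Vldlr, Reln, Thbs1 and Myh6; then 12 per direction, filled by the smallest unadjusted p since none was called, averaging 5 CPM or more in either group, with no overlap and a symbol other than predicted or clone names; and up to 4 members per described list with the smallest p. Other list members were named after their values were seen. Deviations of same-numbered Cre f/+ and Cre f/f libraries correlated at 0.46, 0.45 and 0.33, so a replicate block for that contrast was added after seeing the data. The comparison and the 38 gene lists were chosen with earlier results of these data known. Coordinates and coding sequences are from GENCODE M21 on GRCm38 (mm10), which holds 12627 of the 14591 tested names (86.5%). The rat libraries were not used here, and the values of some genes are not reported here.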

Additional observations from a re-analysis of the deposited data

How the results depend on the processing

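With 3 libraries a side the count of called genes was 0 in limma under all settings run except 2. It was 1 without Cre f/+ replicate 3 (RP23-391M18.7, adjusted p = 0.0287), for a leave-one-out range of 0 to 1. It was also 1 with Cre f/+ replicate 1 and f/f replicate 2 both left out, a setting chosen after seeing the data (Gm47283, adjusted p = 0.0184). GENCODE M21 places Gm47283 at chrY:90784738-90816464, and it was at 45.9, 0 and 0 CPM in Cre f/+ and 10.7, 0 and 7.32 CPM in f/f. These levels do not follow the sum of the 4 Y-linked genes, and the reason was not tested. DESeq2 called 4. Genes at an unadjusted p under 0.05 numbered 1011 with no filter on low values and 168 (without f/f replicate 3) to 754 (without f/f replicate 2) with single libraries left out, against 347 in the main test. They were 223 without f/f replicate 1 and 742 without Cre f/+ replicate 2. Deviations of same-numbered Cre f/+ and f/f libraries correlated at -0.29, -0.55 and -0.05, which cannot show whether the numbers mark pairs. The replicate block gave 0 calls and 348 genes at an unadjusted p under 0.05.

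Signs turned for small differences. The Reln log2 difference was -0.0342 with the Y-linked covariate, -0.36 with both libraries left out, -0.0191 with only libraries without Y-linked transcripts (also chosen after seeing the data), and -0.155 to 0.31 with single libraries left out. The Thbs1 log2 difference was 0.00448 with a pseudocount of 5, 0.0467 with median-ratio scaling, 0.17 with the Y-linked covariate, 0.286 with edgeR, 0.293 with DESeq2, 0.41 with both libraries left out, 0.91 with only libraries without Y-linked transcripts, and -0.70 to 0.49 with single libraries left out; the cause was not tested. With the Y-linked covariate the Fyn log2 difference was -0.0774, the Crk log2 difference 0.0566 and the Mylip log2 difference -0.637. With both libraries left out Fyn was at -0.0335, Mylip at -0.00469, the Wt1 log2 difference -0.269, the Tbx18 log2 difference -0.0377 and the Myl3 log2 difference 0.0759, and DESeq2 gave 0.00226 for Myl3. With only libraries without Y-linked transcripts Fyn was at -0.00318, Crk at 0.163 and Mylip at -0.66. With single libraries left out the ranges were -0.0643 to 0.154 for Fyn, -0.205 to 0.135 for Crk, -0.383 to 0.359 for Mylip, -0.214 to 1.17 for the Mki67 log2 difference, -0.211 to 0.307 for Tbx18, -0.00472 to 0.295 for the Myl2 log2 difference and -0.226 to 0.0604 for Myl3. With only libraries without Y-linked transcripts, which leaves 1 f/f library whose spread is assumed to be that of the other groups, list medians were 1.35 for mitosis, -0.92 for fatty acid oxidation and 0.27 for atrial markers. With single libraries left out, the median log2 difference of Sarcomere genes ran from -0.0894 to 0.214 and the median log2 difference of Tricarboxylic acid cycle genes from -0.447 to 0.0519, while that of smooth muscle and pericyte markers ran from -0.55 to -0.22. Median-ratio scaling moved the median of all genes by 0.0486. The depth in reads is unknown, and the number of libraries limits what could be seen.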

Other observations

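The values below were picked after they were seen and are given without explanation. Their genes were part of the main limma test, which called none of them. The gene with the smallest p in limma was RP23-391M18.7, a clone identifier outside the naming rule, at 0, 0 and 3.14 CPM in Cre f/+, 14.2, 56.5 and 42.4 CPM in f/f and 0 in all 3 Cre f/f libraries (adjusted p = 0.312).

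Txnip, a glucose-responsive regulator of thioredoxin, was at 304, 839 and 140 CPM in Cre f/+ against 1196, 361 and 1024 CPM in f/f. Angptl4 and Ucp3, both targets of fatty acid-sensing receptors, were, of the 6 libraries, lowest in Cre f/+ replicate 3 (6.79 and 3.91 CPM) and highest in f/f replicate 3 (170 and 78.9 CPM). For Txnip f/f replicate 2 lay among the Cre f/+ libraries.

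Single libraries carried large values that crossed genotype. Nppb, the B-type natriuretic peptide, was at 1958 CPM in Cre f/+ replicate 3 and 1967 CPM in Cre f/f replicate 3, against 55.5 to 354 CPM in the other 7 mouse libraries. Ctgf (916 and 842 CPM) and Fkbp5, a glucocorticoid-induced chaperone (149 and 145 CPM), were high in the same pair, as was Zbtb16 (45.9 and 62.5 CPM).

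Nnt, the mitochondrial transhydrogenase gene known to differ between C57BL/6 substrains, was at 191, 11.2 and 6.89 CPM in Cre f/+, 16.4, 419 and 78.2 CPM in f/f and 287, 48.8 and 15.3 CPM in Cre f/f. The 3 highest values fell in the 3 libraries at the negative end of the first principal component. Thap12 and Extl3 were lowest in those same 3 libraries, at 1.36, 1.38 and 5.86 CPM and at 7.2, 6.2 and 5.81 CPM, against at least 50.6 and 59 CPM in the others.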
